A study of Bactrocera oleae with 8 samples.

Results

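The green olive larvae of this study were measured 8 times, once in the Cy5 channel of each of 8 arrays, and the spread of contig levels among these 8 channels is described here. *Bactrocera oleae*, the olive fruit fly, is a tephritid whose larvae feed inside the olive. Every channel held RNA of a pool of 20 wild larvae of the 2nd instar taken from unripe, green olives (GO). In 4 of the arrays, titled GO_vs_BO, the Cy3 channel held larvae from ripe, black olives (BO), and in the other 4, titled GO_vs_AD, it held larvae reared on artificial diet (AD). All 8 Cy5 channels of the 16 channels in the series were therefore included, as 2 sets of 4, and no treatment separated the sets. The methods describe 4 green olive replicates for both sets of arrays, while the labels do not say which channels share an extract, so the 8 channels may hold 4 pools. The green olives were of the Kalamon variety from a single orchard, and the black olives were of another season. RNA came from pooled individuals and not from a dissected tissue, so that fewer cells of a type and less RNA per cell cannot be told apart.

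The arrays were custom designs on contigs of a *B. oleae* transcriptome. Contigs with no recognisable homology to arthropod proteins carried probes for both strands, and the entries for the reverse strand begin with rc_. A contig level is the log2 of the background-corrected Cy5 intensity, brought to 1 common distribution over the 8 channels and averaged over the probes of the contig. A difference of 1 in a level is therefore a doubling of signal. Of 20516 entries on the array, 14057 passed the filter, which asked for a spot well above background in at least 4 of the 8 channels. The median raw Cy5 signal ran from 229 to 292, between 60.6% and 64.1% of the 61600 spots were well above background, and none was saturated. The local background was 52 to 56 in 7 channels and 76 in GO_vs_AD replicate 1.

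A pool averages over the individuals in it, so genes that differ little between larvae give nearly equal levels in every pool. Levels that differ between pools can belong to genes that are switched on for a short time around a moult, genes of sex-specific tissues, genes induced by wounds, heat or microbes, sequences of organisms carried by some larvae, and alleles or gene copies that only some families carry. None of these was recorded for the larvae here.

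The first question was which channels of the 2 sets resembled each other. For every contig the mean of a set was taken from its 4 channels, and these deviations were correlated across the 14057 contigs between each GO_vs_BO channel and each GO_vs_AD channel. Of the 16 correlations, 4 were high and 12 were below 0. GO_vs_BO replicate 1 went with GO_vs_AD replicate 3 (r = 0.732), replicate 2 with replicate 1 (r = 0.908), replicate 3 with replicate 2 (r = 0.897) and replicate 4 with replicate 4 (r = 0.862). The other 12 lay between -0.603 and -0.103. The deviations of a set sum to 0 in each contig, so a high r of a channel draws its other r values below 0 on average. These r values describe likeness across contigs, which are not independent replicates. Below, these couples are called pair 1, pair 2, pair 3 and pair 4, after the number of the GO_vs_BO replicate.

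**Figure D1:**
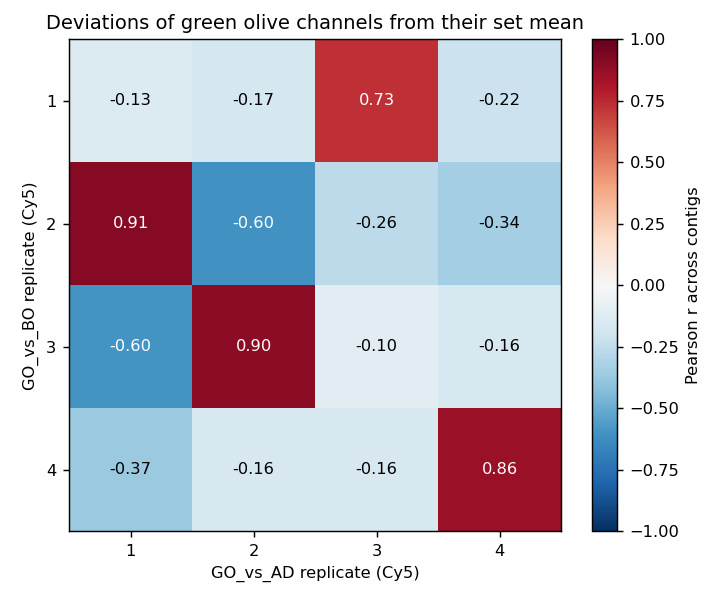
Pearson r across 14057 contigs between the deviations of the 4 GO_vs_BO channels (rows) and those of the 4 GO_vs_AD channels (columns) from their set means. A single cell in each row and column is high, from 0.732 to 0.908, and only replicate 4 is on the diagonal of equal numbers.

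The mean correlation was 0.850 over the 4 pairs and 0.374 for the next best of the 24 ways to match the channels. Channels with equal replicate numbers had a mean of 0.00517, which did not stand above the other matchings (one-sided exact permutation test over the 24 matchings, p = 0.5, with 0.0417 the smallest p this design allows). Since the pairs were chosen for their correlation, no test was made of them. The same 4 pairs came first when only the 6873 odd-numbered or only the 6956 even-numbered contigs were used. They also came first without the most variable 1% of contigs of either set, where the mean over the pairs was 0.797. In pairs 2 and 4 both arrays were in the same row of the slide, and in pairs 1 and 3 they were in different rows. The Cy3 channel beside each Cy5 channel deviated in its own way, with r between the dyes of an array from -0.308 to 0.214 over all contigs.

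The spread between pools was small for most contigs. The standard deviation (SD) of the level between the 4 channels of a set had a median of 0.118 in the GO_vs_BO set and 0.126 in the GO_vs_AD set. The 95th percentiles were 0.434 and 0.441, and the 99th percentiles 0.990 and 0.979. Within the pairs, after removal of the set means, the median SD was 0.061. Among 116 probes spotted at least 10 times on every array, which belong to 29 contigs of housekeeping genes, the spots of a probe within 1 channel had a median SD of 0.133. The probe means over those spots had a median SD of 0.0766 between the GO_vs_BO channels, 0.0757 between the GO_vs_AD channels and 0.0304 within pairs. In the Cy3 channels the median contig SD was 0.165 among the 4 black olive pools and 0.134 among the 4 artificial diet pools, but with the other dye.

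The contigs that varied most were largely the same in the 2 sets. The sets may hold the same pools, and the overlap would then be repeatability of the measurement and not recurrence in other larvae. Of the 141 contigs that make up the most variable 1% of a set, 128 were in the most variable 1% of both, 90.8% of each list (95% exact Clopper-Pearson interval 84.7% to 95%, which treats contigs as independent). The rank correlation of the 2 SDs across contigs was 0.669 and the Pearson correlation 0.925. An SD above 0.5 was found for 548 contigs in the GO_vs_BO set and 589 in the GO_vs_AD set, with 505 in common, which is 92.1% of the first list and 85.7% of the second. An SD above 1 was found for 139 and 134, with 123 in common, or 88.5% and 91.8%. An SD above 2 was found for 27 in each set, with 22 in common.

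**Figure D2:**
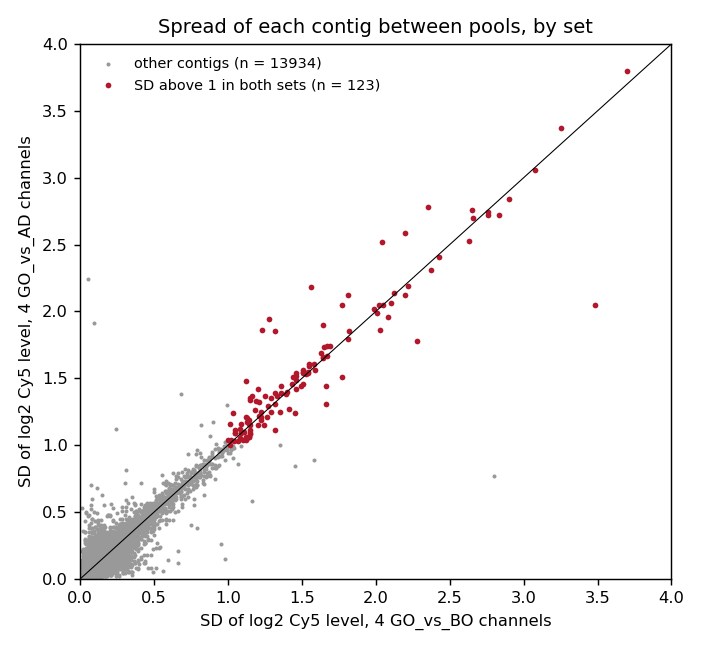
SD of the log2 Cy5 level of each contig between the 4 GO_vs_BO channels (x axis) and the 4 GO_vs_AD channels (y axis), with the line of equality (other contigs in grey). The 123 contigs with an SD above 1 in both sets are in red and lie along the line, and few contigs lie far from it.

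The pattern over the pools recurred too. For each contig the 4 deviations of a set were set against those of the paired channels of the other set. Over all contigs the median of this r was 0.823, and 39.1% of contigs exceeded 0.9. Over the 123 contigs with an SD above 1 in both sets, called recurrent here, the median r was 0.998 and 121 of them exceeded 0.9. Differences between pairs held 93.5% of the sum of squared deviations over all contigs. The 123 recurrent contigs are 0.875% of the contigs and held 37.3% of it. This r was read along pairs chosen on the same values, so it describes the data and is no test.

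Of the 123 contigs, 117 had at least 2 probes, and in 110 of these every probe correlated above 0.9 with the mean of the others over the 8 channels. Of the 123, 99 were well above background in all 8 channels, as were 12688 of the 14057 contigs that passed the filter. A single spot well above background was enough for a contig to count in a channel. Of 4 equal groups of contigs by mean level the brightest held 37 of the recurrent contigs, the next 37 and 40, and the dimmest 9. That mean includes the channels in which a contig was high, and the part of dim signal in the spread was not tested. Probes on both strands were counted once per contig, over entries with a plain or rc_ name. Such contigs were 58 of 117 recurrent ones, or 49.6%, and 5235 of 11285 that passed, or 46.4%. A description was at hand for only 4 of the 123, because descriptions came from the study's own lists of contigs called between feeding regimes and of housekeeping genes. Just inside the limit of 1 were contig00818 (SDs 1 and 1.04), contig12861 (1.01 and 1) and contig06766 (1.01 and 1.16). Just outside were contig13795 (1.35 and just under 1), rc_contig10165 (0.99 and 1.30) and contig12853 (1.01 and 0.99).

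Each recurrent contig was sorted by the largest gap between its 4 pair means. In 38 the gap set pair 2 above the other pairs, in 34 it set pair 3 below them, and in 18 it set pair 4 above them. Pairs 2 and 4 were together above pairs 1 and 3 in 9, and the other 24 were spread over 8 patterns. With the limit lowered to an SD of 0.5 in both sets, 126 of the 505 contigs were high in pair 2 alone, 100 low in pair 2 alone, 90 low in pair 3 alone and 55 high in pair 4 alone. Pair 1 was seldom the odd pair, with 18 contigs high and 8 low in it alone.

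**Figure D3:**
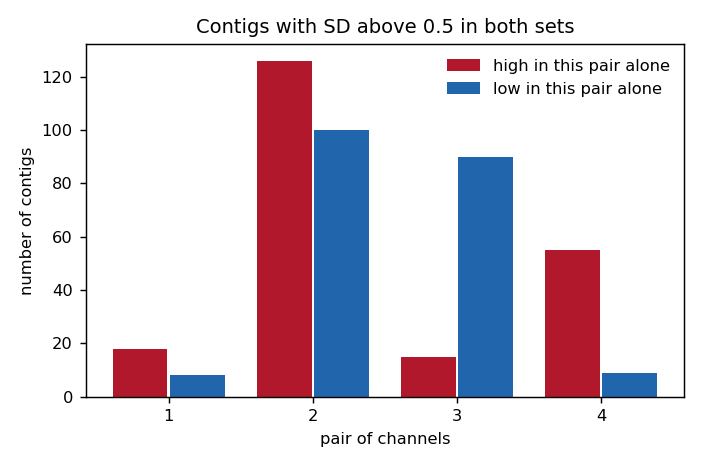
Number of the 505 contigs with an SD above 0.5 in both sets whose largest gap set a single pair of channels above (red) or below (blue) the other 3. Pair 2 has the most of both kinds, 126 and 100, while pair 3 has 90 low and 15 high.

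The contigs high in pair 2 alone included the most variable of all. The level of rc_contig07135 was 14.62 and 14.74 in pair 2, 9.55 and 9.56 in pair 4, 7.33 and 7 in pair 1, and 6.32 and 6.38 in pair 3, with the GO_vs_BO channel first here and below. Its SD was 3.70 in the GO_vs_BO set and 3.80 in the GO_vs_AD set. It was not well above background in pair 3, so pair 2 was at least 317-fold above it, counting from the lowest signal called well above background. All 3 of its probes followed this order.

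The level of contig01477 was 13.73 and 13.80 in pair 2, against 7.79 and 7.37 in pair 1, 6.90 and 6.70 in pair 3, and 7.13 and 7.15 in pair 4. Pair 2 was 125-fold above pair 3, with 7 of the 8 channels well above background, and the channels of the other pairs lay close to each other. Black olive pools reached 12.51 in this contig, in the Cy3 channel of GO_vs_BO replicate 1, so a high level was not restricted to the green olive pools.

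A closely similar order was seen in contig03722, at 12.56 and 12.62 in pair 2 and between 6.82 and 7.65 in the other 6 channels. Pair 2 also stood out in rc_contig02982, at 12.22 and 12.15 against 6.26 to 8.07, and in contig09267, at 11.71 and 11.74 against 6.45 to 7.72. Both strands of contig09604 were recurrent, at 11.36 and 11.18 in pair 2 for rc_contig09604 and 10.72 and 10.87 for contig09604, and neither strand exceeded 7.29 elsewhere. In all of these contigs the channels of pair 2 lay above every other channel, with no overlap. The other strand of rc_contig02982 did not follow it. That entry, contig02982, had a mean level of 8.88 against 8.29, with r = -0.116 between the strands over the 8 channels. Both strands passed the filter for 23 contigs with a recurrent strand, and r between the strands was above 0.9 in 15 of them.

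A graded order over the 4 pairs was seen in contig00483. Its level was 13.07 and 13.09 in pair 2, 10.15 and 10.08 in pair 1, 8.09 and 8.13 in pair 4, and 6.71 and 6.76 in pair 3, where it was not well above background. The channels of each pair nearly coincided, and no pair overlapped another.

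**Figure D4:**
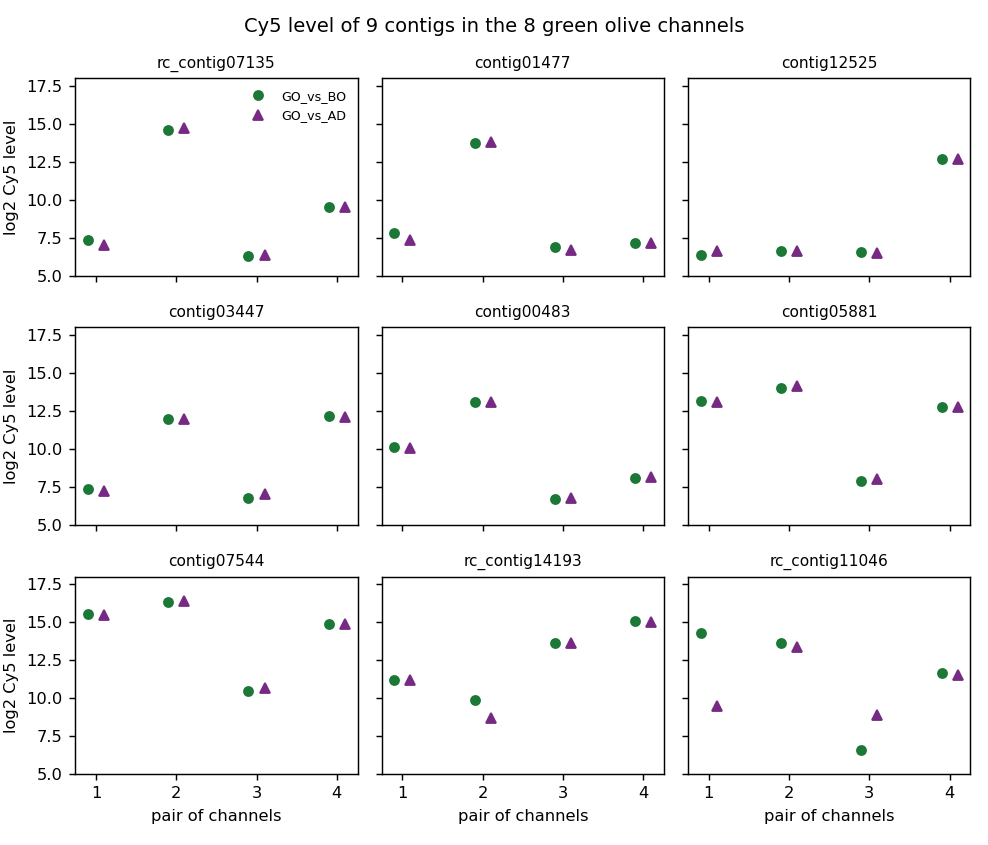
Log2 Cy5 level of 9 contigs in the 8 green olive channels, arranged by pair (x axis), with circles for the GO_vs_BO channel and triangles for the GO_vs_AD channel. The markers of a pair nearly coincide, except in pair 2 of rc_contig14193 (9.83 and 8.69) and in pairs 1 and 3 of rc_contig11046, where pair 1 reads 14.30 and 9.48.

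Another clear contrast was that of contig12525, which was high in pair 4 alone. Its level was 12.68 and 12.69 there and between 6.39 and 6.63 in the other 6 channels, 73.1-fold lower in the lowest pair. It was well above background in 7 of the 8 channels. Its Cy3 level was 6.02 to 6.59 on all 8 arrays, so that no black olive or artificial diet pool came near the level of pair 4. The same was true of contig13372, at 9.87 and 9.84 in pair 4 and 6.25 to 6.63 elsewhere. In contig12776, at 8.74 and 8.64 against 6.46 to 6.69, the difference came from 1 of 3 probes, which read 11.69 and 11.68 in pair 4 while its companions read 7.10 to 7.29.

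Pair 4 is the only pair whose channels also share a replicate number, so these contigs could be found by the labels alone. A moderated F-test for the replicate number, with the set as a covariate, called 4 of the 14057 contigs (limma, adjusted p below 0.05), and percent called was 0.0285%. They were contig12525 (adjusted p = 0.000535), contig13372 (adjusted p = 0.0110), contig12776 (adjusted p = 0.0401) and an entry for a stretch of contig04190 (adjusted p = 0.0401). The last read 8.69 and 8.63 in pair 4 and 7.02 to 7.17 in the other channels. At an unadjusted p below 0.05 there were 426 contigs, or 3.03% of those tested. Without GO_vs_BO replicate 4 or without GO_vs_AD replicate 4 no contig was called, and without any of the other 6 channels 1 to 3 were. Both contig13372 and contig12776 were well above background in only 4 channels, the minimum of the filter. They may have passed it through the channels in which they were high. With all 8 channels required to be well above background, 0 contigs were called. The test takes channels of equal number as replicates, although those of pair 4 may hold the same extract.

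Of the 9 recurrent contigs high together in pairs 2 and 4, contig03447 and contig01748 are given here. The level of contig03447 was 11.98 and 11.98 in pair 2 and 12.16 and 12.08 in pair 4, against 7.34 and 7.23 in pair 1 and 6.78 and 7.01 in pair 3. The level of contig01748 was 12.86 and 12.61 in pair 2 and 14.75 and 14.68 in pair 4, against 10.67 and 10.85 in pair 1 and 10.26 and 10.36 in pair 3. The study's list describes contig01748 by a database match to the sera5 serine repeat antigen gene of *Plasmodium falciparum*, a name taken from a similarity search and no evidence of that parasite in the larvae.

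The contigs low in pair 3 alone were mostly bright in the other pairs. An array entry drawn from a public *B. oleae* sequence record, and not from the contigs, read 15.79 and 15.75 in pair 1, 16.76 and 16.81 in pair 2 and 14.94 and 14.88 in pair 4, but 10.37 and 10.61 in pair 3. The level of contig07544 followed it closely, with 15.51 and 15.49, 16.30 and 16.39, and 14.85 and 14.84 in pairs 1, 2 and 4, and 10.43 and 10.67 in pair 3. Whether these entries cover the same transcript was not tested, so they are not counted as separate evidence. In contig05881 the levels were 13.17 and 13.10, 14.03 and 14.15, and 12.77 and 12.73, against 7.90 and 8.01 in pair 3, a 70.1-fold range between the highest and lowest pair.

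These contigs were variable beyond the green olive pools. The Cy3 level of contig05881 ran from 7.13 to 11.44 among the 4 black olive pools and from 9.72 to 12.78 among the 4 artificial diet pools. Of the 123 recurrent contigs, 50 had a Cy3 SD above 1 among the black olive pools and 49 among the artificial diet pools, 40.7% and 39.8%. Over all contigs that passed, the corresponding shares were 1.32% and 0.647%. Cy3 and Cy5 were read from the same spots, and over the recurrent contigs their deviations on an array correlated between -0.440 and 0.191. The Cy3 values are those of other larvae with another dye, and their part in the Cy5 spread was not tested.

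Some recurrent contigs changed in the opposite sense. A single probe reported rc_contig14193, which read 15.05 and 15.01 in pair 4 and 13.61 and 13.63 in pair 3, against 11.21 and 11.21 in pair 1 and 9.83 and 8.69 in pair 2. Pairs 3 and 4 were thus its high pairs, and it was lowest in the pair in which rc_contig07135 and contig01477 were highest.

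Among the contigs with a description, osiris 15 varied most after contig01748. Osiris proteins are an insect family expressed in cuticle-forming tissues during development. The level of osiris 15 (contig04794) was 10.62 and 10.44 in pair 1, 10.38 and 10.15 in pair 2 and 10.62 and 10.43 in pair 4, and 8.09 and 6.63 in pair 3. Both channels of pair 3 lay below all others, although they differed by 1.46 from each other. The drop came from 2 of its 3 probes. The remaining probe read 6.31 to 7.07 over the 8 channels, with SDs of 0.29 and 0.24, and was not lowest in both channels of pair 3. The Cy3 level beside the pair 3 channels was 9.98 and 6.13, and its part in the difference between them was not tested. Pair 3 was also the lowest for contig08310, described as CG34215-like, at 8.72 and 8.71 in pair 3 and 9.96 to 11.52 elsewhere.

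Prophenoloxidases, the precursors of the enzymes that form melanin in wounded or infected insects, were also lowest in pair 3. For prophenoloxidase A1 (contig01992) the levels were 11.18 and 11.18, 10.86 and 10.95, 9.47 and 9.54, and 10.08 and 10.10 in pairs 1 to 4. For the second prophenoloxidase (contig02081) they were 12.18 and 12.17, 11.97 and 12.11, 10.81 and 10.66, and 11.41 and 11.49. Both ranked the pairs in the same order, 1, 2, 4 and 3. The 9 measured contigs of the cuticle, pigment and melanin list had median SDs of 0.302 and 0.296 in the GO_vs_BO and GO_vs_AD sets, and 2 of them, both prophenoloxidases, had an SD above 0.5 in both sets. Over all contigs 3.59% did.

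Of the 100 contigs low in pair 2 alone 32 were described, of the 126 high in it alone 0, and of the other 279 contigs with an SD above 0.5 in both sets 20, or 7.17%. Over all contigs that passed the filter the share was 2.50%. Descriptions were at hand only for contigs that the study called between regimes or used as controls, so these counts follow that choice as well. The 100 contigs had a median level of 8.02 in pair 2 and 9.43 in the other pairs. Their median Cy3 level was 6.39 in black olive pools and 7.46 in artificial diet pools, where the median of all contigs was 8.84 in each.

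Of the 32 described contigs of this group, 3 were picked out after their values were seen, for known roles in the male germ line of *Drosophila melanogaster*. The group is mixed, and its other members include arginine kinase, alcohol dehydrogenase and myo-inositol oxygenase. Sperm-leucylaminopeptidases are abundant sperm proteins there, and beta-2 tubulin is the tubulin of the developing sperm. The level of sperm-leucylaminopeptidase 1 (contig04956) was 7.50 and 7.61 in pair 2, 8.53 and 8.39 in pair 1, 8.66 and 8.64 in pair 3, and 9.16 and 9.11 in pair 4. Sperm-leucylaminopeptidase 3 (contig00850) read 8.33 and 8.31 in pair 2 and 9.33 to 9.65 in the other channels. Its probes differed on the highest pair. A probe read 9.94 and 9.87 in pair 1 against 9.86 and 9.82 in pair 4, and another 9.07 and 8.65 against 8.66 and 8.60. The remaining probes were highest in pair 4. Beta-2 tubulin (contig01465) read 8.62 and 8.72 in pair 2 and 9.26 to 9.98 in the others. Contigs entered this group by being low in pair 2, so the low levels of all 3 there follow from the choice. By contig level all 3 were highest in pair 4, but this does not set them apart. Arginine kinase and alcohol dehydrogenase were highest there too, while other members, myo-inositol oxygenase among them, were highest in pair 3 or pair 1. The sex of the larvae was not recorded, and its part in these levels was not tested.

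The digestive protease list holds both sperm-leucylaminopeptidases, and they were among its 3 members with an SD above 0.5 in both sets. The third was tripeptidyl-peptidase 2-like (contig01887), a peptidase of the cytosol, at 7.24 and 7.25 in pair 2 and 8.27 to 8.80 elsewhere. All 18 members passed the filter, with median SDs of 0.207 and 0.179, and 14 of them, or 77.8%, had r above 0.9 along the pairs, against 39.1% of all contigs. Over the gene lists this share ran from 33.3% for the muscle proteins and 45.5% for the ribosomal proteins to 100%, as for the heat shock proteins. The 3 with an SD above 0.5 are 16.7% of the list, against 3.59% of all contigs. The secreted enzymes of the gut differed in spread, and those given here were chosen after their values were seen. Zinc carboxypeptidase A1 (contig07649) had SDs of 0.40 and 0.46, midgut-specific serine protease 1 (contig02711) 0.31 and 0.30, and a second midgut trypsin (contig05378) 0.22 and 0.23. At the other end, midgut trypsin contig04090 had 0.09 and 0.09, trypsin delta/gamma (contig04849) 0.03 and 0.07, and chymotrypsin-like contig04313 0.07 and 0.08.

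Heat shock proteins, chaperones that accumulate on heat and other stress, had median SDs of 0.351 and 0.345, above the medians of 0.118 and 0.126 over all contigs. All 10 measured contigs had r above 0.9 along the pairs, compared with 39.1% of all contigs. An SD above 0.5 in both sets was found for 2 of the 10, or 20%, against 3.59% of all contigs. The heat shock proteins did not move as a block. Heat shock protein 23 (contig07230) was higher in pair 2 (16.55 and 16.54) and pair 4 (16.42 and 16.33) than in pair 1 (15.51 and 15.50) and pair 3 (15.55 and 15.55). Heat shock protein 83 (contig00907) was highest in pair 3 (16.11 and 16.09) and lowest in pair 2 (14.82 and 14.68), with 15.13 and 15.16 in pair 1 and 15.44 and 15.43 in pair 4. Heat shock protein 27 (contig02774) was low in pair 2 alone, at 12.67 and 12.69 against 13.34 to 13.62.

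Of the 9 contigs for other digestive enzymes and gut lining, the lysozyme precursor contig06851, of a family that breaks bacterial cell walls, had the highest SDs, 0.69 and 0.71. Its levels were 13.51 and 13.53 in pair 1, 13.19 and 13.16 in pair 4, 12.33 and 12.37 in pair 3, and 12.07 and 11.98 in pair 2. The dimmest of its probes was lowest in pair 3, at 9.50 and 9.38, against 10.26 and 10.25 in pair 2, while its other probes were lowest in pair 2. Maltase A2 (contig02414) followed with SDs of 0.38 and 0.37.

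The 15 contigs of detoxification enzymes had median SDs of 0.218 and 0.230, also above those of all contigs. Cytochrome P450 28A1 (contig03604) was the 1 member with an SD above 0.5 in both sets, 6.67% of the list against 3.59% of all contigs. P450 enzymes oxidise plant compounds and insecticides, among others. The level of contig03604 was 7.83 and 7.68 in pair 4, 8.55 and 8.48 in pair 2, 9.19 and 9.19 in pair 1, and 9.44 and 9.40 in pair 3, and all 4 of its probes were lowest in pair 4. Glutathione S-transferase D1 (contig08281) had SDs of 0.48 and 0.51. Among 14 measured P450 sequences cloned earlier, a list added after the array's names were read, boCYP12A3-13 had SDs of 0.93 and 0.91, with 8.42 and 8.47 in pair 2, 7.52 and 7.65 in pair 4 and 6.38 to 6.67 in pairs 1 and 3. In boCYP4AC1-4 pairs 1 and 2 read 7.91 to 8.10 and pairs 3 and 4 read 6.69 to 7.05.

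Myo-inositol oxygenase contig09199, of the enzyme that opens the inositol ring, had the highest SDs of the metabolic list, 0.83 and 0.86, at 11.61 and 11.60 in pair 2 and 12.93 to 13.57 elsewhere. This rested on 1 of its 3 probes, with SDs of 1.76 and 1.77, while the others had 0.34 to 0.51. The second contig of that list by spread, contig08383, had SDs of 0.34 and 0.35.

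**Figure D5:**
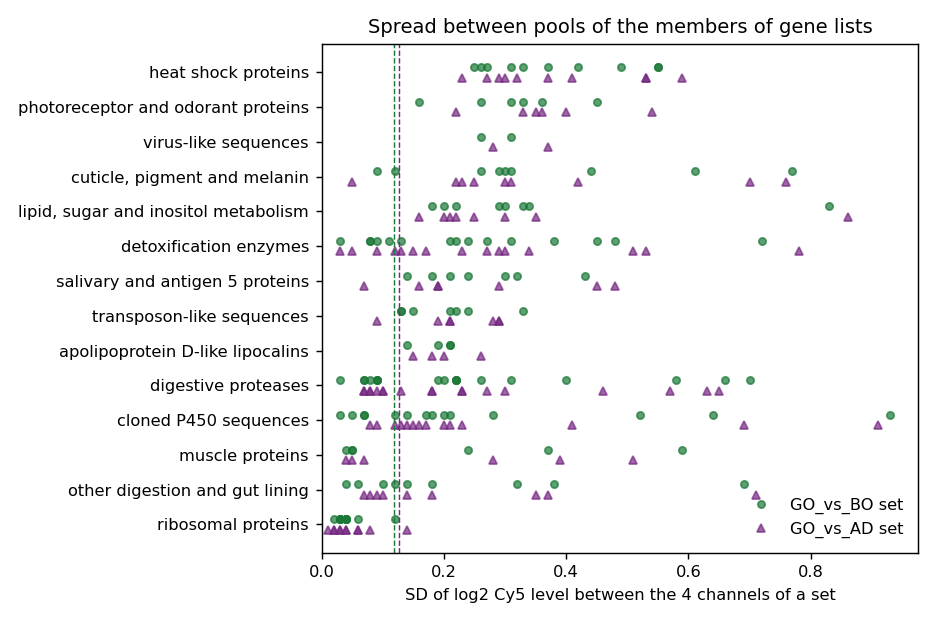
SD of the log2 Cy5 level between the 4 GO_vs_BO channels (circles) and the 4 GO_vs_AD channels (triangles) for each measured member of 14 gene lists, ordered by their median. Dashed lines mark the medians over all contigs, 0.118 and 0.126, and the ribosomal proteins lie mostly below them while the heat shock proteins lie above.

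Ribosomal proteins, which every cell needs in quantity, were the steadiest list, with median SDs of 0.0351 and 0.0409 over 11 contigs. The highest were 0.12 and 0.14 for the mitochondrial ribosomal protein contig01557, and 60S ribosomal protein L13a (contig09856) read 15.58 to 15.75 in all channels. Of 6 muscle proteins, arginine kinase (contig01097) alone exceeded 0.5 in both sets, 16.7% of the list against 3.59% of all contigs, being low in pair 2 at 7.71 and 7.88 against 8.52 to 9.07, while actin (contig00132) had 0.04 and 0.04. Troponin T, listed under its *Drosophila* name upheld (contig10092), had 0.37 and 0.39. The 6 photoreceptor and odorant proteins had median SDs of 0.325 and 0.353 with r above 0.9 in all 6, against 39.1% of all contigs. Rhodopsin contig04859 had SDs of 0.31 and 0.54, and odorant binding protein 8a (contig07577) had 0.45 and 0.36.

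The remaining lists held no contig with an SD above 0.5 in both sets under the main processing. The salivary and antigen 5 proteins had medians of 0.244 and 0.187 over 7 contigs, led by salivary contig06700 (0.43 and 0.45) and antigen 5 precursor contig12338 (0.30 and 0.48). With the scanner's processed signal the SDs of contig12338 were 0.637 and 1.32, above 0.5 in both sets, and with the median of the probes the second was 1.06. The 7 transposon-like sequences had 0.211 and 0.212, led by the Tc3 transposase contig07038 (0.33 and 0.29) and contig09291 (0.24 and 0.28). The 4 apolipoprotein D-like lipocalins had 0.197 and 0.191, and among them contig07071, among the brightest contigs of the array, read 18.73 and 18.63 in pair 3 and 18.07 to 18.34 elsewhere, while Neural Lazarillo (contig01235) had SDs of 0.21 and 0.20. Of 3 virus-like sequences 2 passed the filter. The nucleocapsid protein contig04635 had SDs of 0.31 and 0.37 and was lowest in pair 1, at 12.90 and 12.83 against 13.35 to 13.67. The outer coat protein contig05647 had SDs of 0.26 and 0.28 and was also lowest in pair 1, at 8.90 and 8.91 against 9.19 to 9.60.

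The 2 sets of green olive channels were then compared with each other, which asks whether the array set mattered for larvae of the same regime. No contig was called (limma, adjusted p below 0.05 and an absolute log2 difference above 1), and percent called was 0%. The smallest adjusted p was 0.35, 68 contigs had an unadjusted p below 0.05, or 0.484% of those tested, and the median absolute difference was 0.0284. In this fit the differences between pairs counted as error, so small p-values were rare and the lack of calls does not show that the sets were alike. With the 4 pairs as blocks 521 contigs, or 3.71%, had an unadjusted p below 0.05 and 1 an adjusted p below it. This was rc_contig13923 (adjusted p = 0.0353 with the pairs as blocks), at 7.33 to 7.82 in the GO_vs_BO set and 8.06 to 8.46 in the GO_vs_AD set, and its difference did not reach 1.

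A difference above 1 between the sets was measured for 2 contigs, neither of them called. The entry rc_contig00002, for the reverse strand of its contig and described as a nonstructural polyprotein of viral type, read 6.42 to 6.62 in the 4 GO_vs_BO channels and 10.88, 12.12, 9.32 and 7.72 in GO_vs_AD replicates 1 to 4. The difference was 3.50 (95% CI 1.65 to 5.35, limma adjusted p = 1), and the sets did not overlap. The Cy3 level of the same spots was 5.99 to 6.37 on the GO_vs_BO arrays and 12.68 to 17.72 on the GO_vs_AD arrays, and the 4 GO_vs_AD arrays stood in the same order in both dyes. The second was an entry for a stretch of contig02409, at 15.10 in GO_vs_AD replicate 2 and 10.52 to 10.76 in the other 7 channels. Its 2 probes read 14.57 to 15.10 and 6.40 to 6.63, and on that array the dimmer probe had been left out as an outlier spot, so that this contig level comes from the brighter probe alone.

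Paired channels seldom disagreed. Of 56228 comparisons of the channels of a pair, 47, or 0.0836%, differed by more than 1, in 41 contigs. In 46 of these 47 the Cy3 level on the array with the higher Cy5 level was higher as well, and in 37 it was higher by more than 1. Both recurrent contigs whose r did not exceed 0.9 were of this kind. In rc_contig11046, with 1 probe, pair 1 read 14.30 and 9.48 with Cy3 levels of 15.93 and 9.72, and pair 3 read 6.60 and 8.87 with Cy3 levels of 6.90 and 10.56. In contig09147 pair 1 read 10.01 and 7.95 with Cy3 levels of 15.78 and 7.17. Their r along the pairs was 0.528 and 0.897.

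In rc_contig10974, also with 1 probe, pair 3 read 9.48 and 13.73 with Cy3 levels of 9.81 and 15.47, which gave it an SD of 2.80 in the GO_vs_BO set and 0.77 in the GO_vs_AD set. It was thus the contig with the seventh highest SD of 1 set and stood far lower in the other. The part that Cy3 signal on the same spot has in a Cy5 reading was not tested.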

How the data were processed

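Larvae were measured on 8 arrays of 1 Agilent slide. The deposited intensity values are raw scanner readings, 1 file per array, made by the authors with Feature Extraction 10.7.3.1 per the file headers (the submitters' processing notes name version 10.5), which gives median Cy5 and Cy3 intensity and local background per spot and is not normalized. The authors' own table of ratios was not used.

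Here the Cy5 intensity was corrected by normexp (offset 50), as in the study's methods, on all spots, and the 1319 control spots were then left out. Log2 values were quantile normalized over the 8 Cy5 channels, apart from Cy3, outlier spots were dropped, and spots were averaged per probe and probes per contig. Cy3 levels shown beside them were made the same way. Analyses used R 4.3.3 and limma 3.58.1, and the steps were tested on simulated data. Of 20516 entries 4 lacked a value. P-values were adjusted by Benjamini-Hochberg over 14057 contigs.

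Groups came from the array titles. Replicate numbers did not pair the channels, so pairs were found by correlation. P-values measure only the spread between these channels, which may be technical where channels share an extract. The number of arrays limits precision.

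Where the lowest pair was not well above background, a fold was computed from the lowest signal called so on each array and is a lower bound. Contigs were named by rule: the 8 with the highest SD in each set, the 12 with the highest of the smaller SD, up to 3 with the lowest p for the replicate number, any called between sets, and 2 of each of 13 lists (113 contigs) by mean SD; others were added after their values were seen. Members, lists and tests were chosen with earlier results of these data known. Contig descriptions are the study's. Sequences of the contigs were not used here. Alternatives covered normalization, background correction, outlier spots, probe averaging, the filter, blocks, slide row and each channel left out.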

Additional observations from a re-analysis of the deposited data

Results flagged for a closer look

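Among the 84 groups of 4 channels formed by 42 named contigs in the 2 sets, 12 held a channel far from the other 3, in that its share of the whole range lying between it and the nearest channel exceeded Dixon's 95% critical value. Chance flags about 1 group in 20, but many of these contigs were named for their high SD or for a low p by replicate number, so this rate is no yardstick for them. The 12 belong to 6 contigs, each in both sets and in paired channels, which may hold the same extract and are then no independent support. In pair 2, contig01477 stood out at 13.73 and 13.80 and contig03722 at 12.56 and 12.62. In pair 4, contig12525 stood out at 12.68 and 12.69, contig13372 at 9.87 and 9.84, and contig12776 at 8.74 and 8.64. In pair 3 the lipocalin contig07071 stood out at 18.73 and 18.63, with a range of only 0.44 and 0.56 in the sets. Of 10 groups formed by measures of the channels themselves, the median Cy5 background of GO_vs_AD replicate 1, at 76, was the only value flagged.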

How the results depend on the processing

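The 4 pairs came first under all 11 settings in which they could be chosen anew over the 8 channels, and their members stayed matched in all 8 analyses with a channel left out. Their mean correlation was 0.763 with no filter and 0.724 to 0.871 with a channel left out. The mean over equal replicate numbers was -0.0236 with the scanner's processed signal, -0.0121 without the most variable contigs of either set, which was added after the data were seen, and -0.371 to 0.300 with a channel left out, and no exact p fell below 0.05. No contig was called between the sets under any setting, including the replicate block, with 0 called and 65 at an unadjusted p below 0.05. Equal numbers had correlations of -0.134, -0.603, -0.103 and 0.862, so only the number 4 matched a pair. By replicate number 0 contigs were called when all 8 channels had to be well above background, 8 with no filter, 1 with the slide row as covariate, and 0 to 3 with a channel left out. The share of most variable contigs in common was 66.7% to 86.5% with a channel left out, which leaves 3 channels for 1 of the SDs, and the lowest came without GO_vs_BO replicate 2. The rank correlation of the SDs was 0.795 with the processed signal, 0.590 with the median of the probes, 0.546 with no filter and 0.529 to 0.642 with a channel left out. The median SD was 0.140 with an offset of 16, 0.114 with no background correction, 0.165 with the processed signal, 0.141 with the median of the probes, 0.110 with no filter and 0.110 to 0.123 with a channel left out. The cause of these shifts was not tested. Of the 84 SDs of named contigs, 20 moved by more than their approximate standard error with the processed signal, under which all 84 were 0.687 to 2.78 times their value. Among the 20 were contig01887 at 1.18 and 1.09, contig04956 at 1.01 and 0.940, contig13372 at 2.80 and 2.89, and contig12776 at 1.92 and 1.76. With a channel left out 1 to 13 of the 84 moved, and the ratios ran from 0.0205 to 1.22. With the median of the probes the SDs of contig12776 fell to 0.337 and 0.274 and those of contig09199 to 0.302 and 0.489. Signal near background limits the lowest levels, which the offset compresses.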
